A study of Mus musculus with 8 samples.

Results

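Fibronectin, the matricellular proteins and the enzymes that crosslink the matrix were followed at the RNA level in NMuMG, a line of mouse mammary gland epithelium. The group holds 8 genes chosen by symbol: *Fn1* (fibronectin), *Tnc* (tenascin C), *Spp1* (osteopontin), *Sparc* (osteonectin), *Tgm2* (transglutaminase 2), *Lox* (lysyl oxidase) and its relatives *Loxl1* and *Loxl2*. All 8 were found among the 37310 genes of the count table, and 6 were among the 13028 genes with enough counts to be tested. *Lox* and *Loxl1* were not tested for lack of counts. TGF-β raised *Spp1* and *Fn1* in control cells. In cells labelled knockout their log2 differences of 0.43 and 0.73 did not pass, and the difference between responses passed for no gene. *Tgm2* rose with TGF-β in both genotypes and was also higher in the libraries labelled knockout. *Sparc* was higher in the treated libraries labelled knockout than in treated control cells. Of these calls only that of *Spp1* held in every alternative setting.

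Fibronectin is a secreted glycoprotein that cells assemble into fibrils through integrins, and those fibrils are a scaffold on which collagens and other matrix proteins are laid down. Matricellular proteins such as tenascin C, osteopontin and SPARC are secreted into the matrix but mainly tune how cells attach to it rather than give it strength. Lysyl oxidases oxidise lysines of collagen and elastin so that the fibres crosslink, and transglutaminase 2 joins glutamine and lysine side chains of proteins, fibronectin among them. Deposition of fibronectin is a classic feature of the epithelial to mesenchymal transition (EMT), which TGF-β sets off in NMuMG cells.

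The 8 RNA-seq libraries formed 4 groups of 2. Control cells were left untreated or received 10 ng/ml TGFβ1 for 2 h, and cells labelled KO, in which *Lnc-Nr6a1* was targeted with CRISPR-Cas9 at its promoter and first exon, were left untreated or received the same dose for the same time. All cells were grown in medium with serum and insulin. The edited cells were grown from single sorted cells, and which clone or how many clones gave these libraries is not given in the sources used here, so an effect of the deletion and a property of a clone cannot be told apart. The replicates are described as biological in the study's methods, without naming separate cultures, so the p-values measure the spread between these libraries.

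RefSeq promoter windows (build GRCm38.p6, 250 bases before to 50 bases after a transcription start) were on hand for 3 of the 8 genes, in 5 windows. They belong to the matricellular genes, and 1 window of each is shown as the sequence at the start of a gene whose RNA was measured under TGF-β, with *Tnc* at the second of its listed starts. Capitals mark matches to any of the motifs searched on both strands, namely the SMAD box CAGAC (which reads as GTCTG when it lies on the other strand), the AP-1 site TGANTCA, the RUNX site AACCACA, the TEAD site GGAATG and the TATA box TATAAN.
*Spp1*, chr5:104434861-104435160, plus strand: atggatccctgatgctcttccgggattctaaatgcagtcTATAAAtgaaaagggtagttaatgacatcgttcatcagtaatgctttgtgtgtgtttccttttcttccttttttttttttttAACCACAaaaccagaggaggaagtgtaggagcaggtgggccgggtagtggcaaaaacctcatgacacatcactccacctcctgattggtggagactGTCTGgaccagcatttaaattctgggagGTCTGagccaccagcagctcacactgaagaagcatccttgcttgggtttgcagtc
*Tnc*, chr4:64046887-64047186, minus strand: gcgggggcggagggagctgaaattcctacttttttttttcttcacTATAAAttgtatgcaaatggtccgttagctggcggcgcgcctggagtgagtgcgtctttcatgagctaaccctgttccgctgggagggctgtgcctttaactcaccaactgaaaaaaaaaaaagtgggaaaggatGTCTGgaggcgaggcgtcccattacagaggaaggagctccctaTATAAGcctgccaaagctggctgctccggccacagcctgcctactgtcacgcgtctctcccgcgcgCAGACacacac
*Sparc*, chr11:55420031-55420330, minus strand: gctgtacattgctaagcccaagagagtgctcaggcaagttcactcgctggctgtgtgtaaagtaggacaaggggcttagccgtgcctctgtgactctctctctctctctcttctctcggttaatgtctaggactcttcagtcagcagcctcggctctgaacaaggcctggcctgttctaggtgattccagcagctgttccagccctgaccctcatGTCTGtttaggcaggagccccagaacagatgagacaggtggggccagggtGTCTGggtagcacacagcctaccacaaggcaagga

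The *Spp1* window held GTCTG at -33 and -5 from the start, the RUNX letters at -129 and TATAAA at -211. The *Tnc* window held TATAAG at -27, TATAAA at -205, GTCTG at -70 and CAGAC at 39. The *Sparc* window held GTCTG at -35 and 15 and no TATA match. Among all 32851 windows of the same length, 49.6% held the SMAD box, 24.8% TATAAN, 14.7% the TEAD letters, 7.81% the AP-1 letters and 5.27% the RUNX letters. These are matches of letters, not binding sites.

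The libraries held 4297832 to 7871090 counts untreated and 9895118 to 13574397 treated, so depth ran with treatment. Thinning to the smallest total was among the alternatives. *Lnc-Nr6a1* (Gm13507) had 3 and 14 counts in untreated control cells, and 11 and 7 in untreated cells labelled knockout, so it goes against the label of the latter. After TGF-β it had 25 and 35 counts in control cells, and none in either library labelled knockout. *Fam111a* and *Mal2*, named after their values were seen, ran with the labels, with 122 to 188 and 52 to 118 counts in the 4 control libraries and none in the 4 labelled knockout. *Snai1*, an early target of TGF-β, rose in control cells with a log2 fold change of 4.23 (edgeR's adjusted p = 4.16e-04). Of 9 epithelial markers, *Cldn3*, *Cldn7* and *Esrp1* were at 0 in every library, *Epcam* had 0 counts in 7 libraries and 2 in 1, and the list summed to 4900 to 5633 CPM (counts relative to the TMM-scaled library total) in untreated and 6724 to 10040 CPM in treated libraries. *Krt8* with 2126 to 4345 CPM and *Krt18* with 2441 to 5797 CPM made most of that sum. Fibroblast markers, of which *Lum* and *Thy1* were at 0, summed to 1.45 to 2.08 CPM in control, 3.09 to 4.45 in treated control, 0.797 to 4.85 in labelled knockout and 4.61 to 4.73 CPM in treated labelled knockout libraries. Macrophage markers summed to 2.31 to 5.72 CPM with *Emr1* at 0, endothelial markers to 0 to 0.847 CPM with *Kdr* at 0, and myoepithelial markers to 2.87 to 5.67 CPM in untreated and 23.9 to 42.1 CPM in treated libraries, of which *Krt14* alone made 2.43 to 5.19 and 23.0 to 41.8 CPM. The part of the epithelial and fibroblast sums and of *Krt14* in the differences after TGF-β was not tested. In bulk RNA, fewer cells of a type and less RNA per cell cannot be told apart.

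Per length, *Spp1* was by far the most abundant of the group. Its mean over the 8 libraries was 1928 RPKM (counts scaled by exon length and library size), followed by *Sparc* with 185, *Tgm2* with 56.7, *Fn1* with 11.0, *Loxl2* with 3.65, *Tnc* with 1.17 and *Lox* with 0.061 RPKM. *Loxl1* had no count in any library. The ranges of neighbouring genes over the 8 libraries did not overlap from *Spp1* down to *Loxl2*, while those of *Loxl2* and *Tnc* did.

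**Figure D1:**
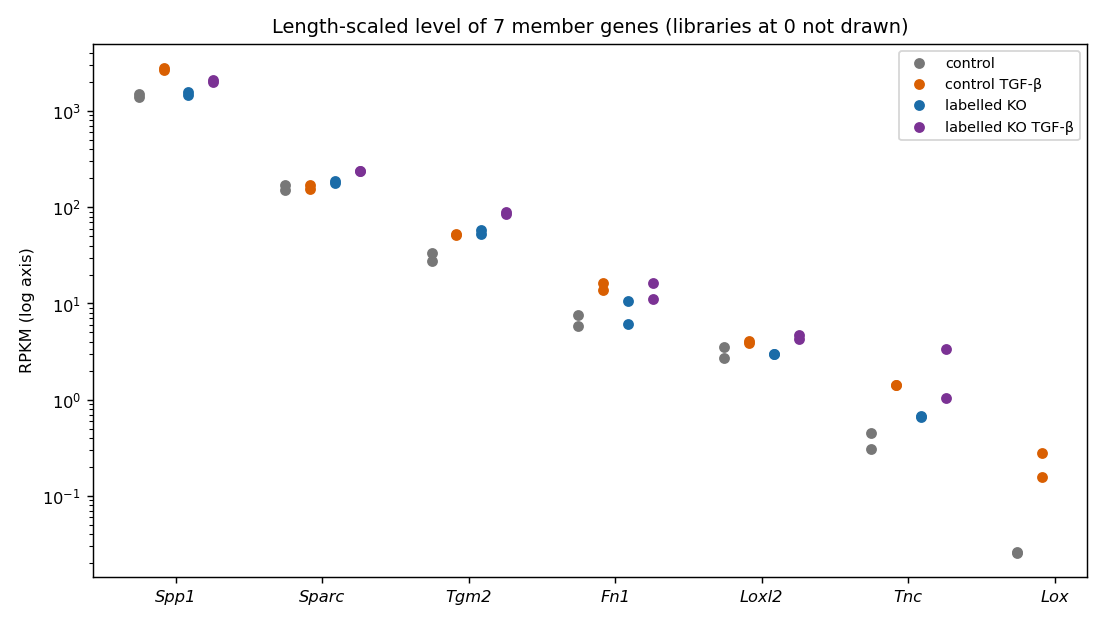
RPKM (log axis) of 7 genes in each library, coloured by group, with libraries at 0 left out, so *Lox* is drawn for control cells only. *Spp1* lies above every other gene in all 8 libraries.

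In control cells, TGF-β raised 3 of the 6 tested genes and lowered none, where 4.69% of all tested genes rose and 4.47% fell. The same treatment of the cells labelled knockout raised 1 of 6, *Tgm2*, where 4.25% of all tested genes rose and 2.57% fell. Between genotypes, 1 of 6 (*Tgm2*) was higher in the untreated libraries labelled knockout, against 1.03% of all tested genes higher and 0.798% lower. After TGF-β, 2 of 6 (*Tgm2* and *Sparc*) were higher in the libraries labelled knockout, against 8.47% of all tested genes higher and 6.57% lower. A gene counted as changed when edgeR's Benjamini-Hochberg adjusted p was below 0.05 and the log2 fold change beyond 0.5 in size. The median log2 fold change of the 6 genes was 0.84 with TGF-β in control cells, 0.61 with TGF-β in cells labelled knockout, 0.26 between untreated genotypes and 0.35 between treated genotypes, and the medians of all tested genes lay between -0.012 and 0.018. The comparisons share libraries and are not independent of each other. The response to TGF-β differed between genotypes for 0 of 6 genes and 0% of all tested genes by edgeR's adjusted p, with 1134 genes at an unadjusted p below 0.05, and DESeq2 called 30 genes and limma-voom 0.

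**Figure D2:**
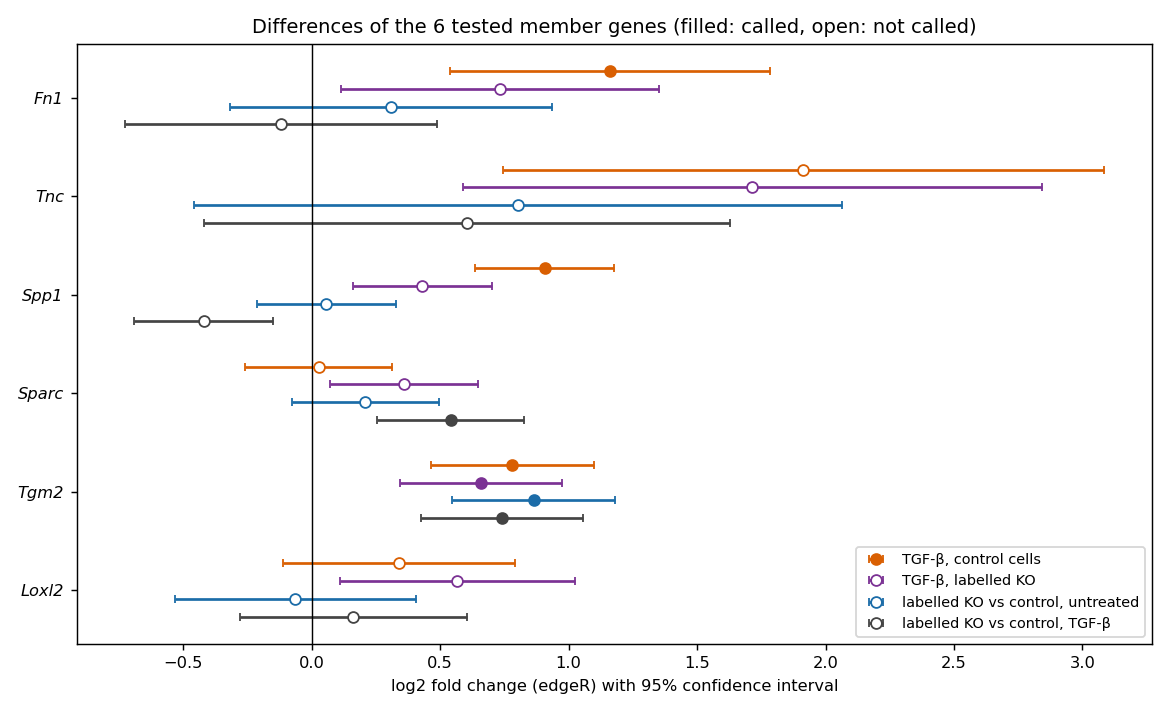
Log2 fold changes of the 6 tested genes with 95% confidence intervals, for TGF-β in control cells, TGF-β in cells labelled knockout and labelled knockout against control without and with TGF-β (filled points: changed by the test). *Tgm2* is filled in all 4 comparisons, and *Loxl2* and *Tnc* in none.

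*Fn1* (ENSMUSG00000026193.8, chromosome 1, 71632094 to 71699774, minus strand of NCBIM37) encodes fibronectin itself. Control cells had 48.4 and 63.8 CPM of it untreated, and 136 and 115 CPM with TGF-β. The libraries labelled knockout had 50.5 and 87.6 CPM untreated and 93.8 and 137 CPM treated. Treated libraries were above untreated ones of the same genotype in every case, and the genotypes overlapped within each treatment. In order of their means the groups ran from control (56.1 CPM) over labelled knockout (69.0) and treated labelled knockout (115) to treated control (125 CPM), and neighbours overlapped at the first and last step. The rise in control cells was 1.16 on the log2 scale (SE 0.28, edgeR's adjusted p = 0.0332), and the difference in the cells labelled knockout was 0.73 (SE 0.28, adjusted p = 0.153, 95% interval 0.11 to 1.35). The latter was 0.40 and 1.20 without untreated labelled knockout replicate 1 and 2 and 0.46 without treated labelled knockout replicate 2, and it passed without the filter on low counts (adjusted p = 8.76e-04). The difference between these responses was -0.43 with a 95% interval of -1.30 to 0.44 (adjusted p = 0.793). Between genotypes it was 0.31 untreated (interval -0.32 to 0.93) and -0.12 treated (interval -0.73 to 0.49). The call in control cells was lost without control replicate 1 (adjusted p = 0.239), control replicate 2 (0.0956) or treated control replicate 1 (0.0656). Of its exons, 292 bases are shared with *Apol7d* on the other strand, which had 0 to 5 counts.

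*Tnc* (ENSMUSG00000028364.8, chromosome 4, 63620819 to 63681760, minus strand) encodes tenascin C, a large hexameric glycoprotein that binds fibronectin and loosens cell attachment. Counts were low in control cells, with 19 and 28 (2.29 and 3.42 CPM), and reached 115 and 102 (10.8 and 10.8 CPM) after TGF-β. The untreated libraries labelled knockout had 5.07 and 4.92 CPM, and the treated ones 7.74 and 25.0 CPM. Treated libraries lay above untreated ones throughout, but treated labelled knockout replicate 2 stood far above replicate 1, by 1.67 on the log2 scale. The log2 fold change after TGF-β was 1.91 in control cells (SE 0.52, edgeR's adjusted p = 0.0505) and 1.71 in cells labelled knockout (SE 0.50, adjusted p = 0.0759), so neither passed the threshold. The latter was 2.35 without treated labelled knockout replicate 1 and 0.66 without treated replicate 2 (adjusted p = 0.498). It passed by DESeq2 (0.0114) and without the filter on low counts (1.24e-05). Without treated labelled knockout replicate 1 both passed (adjusted p = 0.00705 and 0.00436), and without replicate 2 the one in control cells did (0.0116). Between treated genotypes the log2 difference was 0.60 (SE 0.46, adjusted p = 0.399), 1.22 without replicate 1 of the treated libraries labelled knockout (adjusted p = 0.0441) and -0.46 without replicate 2. Between untreated genotypes it was 0.80 (SE 0.56, adjusted p = 0.554), and the replicates of the 2 groups did not overlap. The lincRNA *8030451A03Rik*, with 176 shared exon bases on the other strand, had 0 to 3 counts.

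*Spp1* (ENSMUSG00000029304.8, chromosome 5, 104864137 to 104870069, plus strand) encodes osteopontin, a secreted phosphoprotein that binds integrins and CD44. Control cells had 2284 and 2499 CPM, and TGF-β brought them to 4595 and 4369 CPM. The libraries labelled knockout had 2397 and 2576 CPM untreated and 3268 and 3429 CPM treated. The untreated genotypes overlapped, while after TGF-β both control libraries stood above both libraries labelled knockout. *Spp1* rose by 0.91 on the log2 scale in control cells (SE 0.12, edgeR's adjusted p = 0.00308) and this held in all 16 alternative settings (adjusted p from 2.16e-09 to 0.0447). In cells labelled knockout the log2 difference was 0.43 (SE 0.12, interval 0.16 to 0.70, adjusted p = 0.0656). The treated libraries labelled knockout were lower than the treated control libraries by a log2 fold change of -0.42 (SE 0.12), which passed on adjusted p (0.0442, edgeR) and not on size. The adjusted p was between 0.0582 and 0.181 when any 1 of the 8 libraries was left out. The difference between the responses was -0.48 (interval -0.86 to -0.09) with an unadjusted p = 0.0196 and an adjusted p = 0.497 in edgeR's fit over all genes. Macrophages are a known source of osteopontin, and the macrophage marker sum given above was 3.38 to 3.42 CPM in control and 3.56 to 4.76 CPM in treated control libraries, and 4.41 to 5.72 CPM in untreated and 2.31 to 2.53 CPM in treated libraries labelled knockout. Of these sums *Cd68* alone made 1.99 to 5.32 CPM, while *Ptprc*, *Lyz2* and *Itgam* had at most 2 counts in any library. The part of the macrophage markers in the differences of *Spp1* was not tested.

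*Sparc* (ENSMUSG00000018593.6, chromosome 11, 55208002 to 55233582, minus strand) encodes a collagen-binding glycoprotein that acts as a chaperone of collagen outside the cell. Untreated control cells had 503 and 567 CPM, treated ones 521 and 571 CPM. In the libraries labelled knockout it was 634 and 603 CPM untreated and 795 and 793 CPM treated. The 4 control libraries overlapped with respect to treatment, and the 4 libraries labelled knockout all lay above them. TGF-β in control cells gave a log2 difference of 0.03 (SE 0.13, 95% interval -0.26 to 0.31), and in cells labelled knockout of 0.36 (SE 0.13, edgeR's adjusted p = 0.135). *Sparc* was higher in the treated libraries labelled knockout than in the treated control libraries by 0.54 on the log2 scale (SE 0.13, edgeR's adjusted p = 0.0231), and untreated the difference was 0.21 (interval -0.08 to 0.50, adjusted p = 0.495). The difference between the responses did not pass (0.33, interval -0.07 to 0.74, adjusted p = 0.636). The call lay just above the fold threshold. It was lost with only the 4 treated libraries (adjusted p = 0.104), without treated control replicate 1 (log2 fold change 0.49), without untreated labelled knockout replicate 1 or 2 (0.0513 and 0.0508) and without treated labelled knockout replicate 1 or 2 (0.0757 and 0.105).

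**Figure D3:**
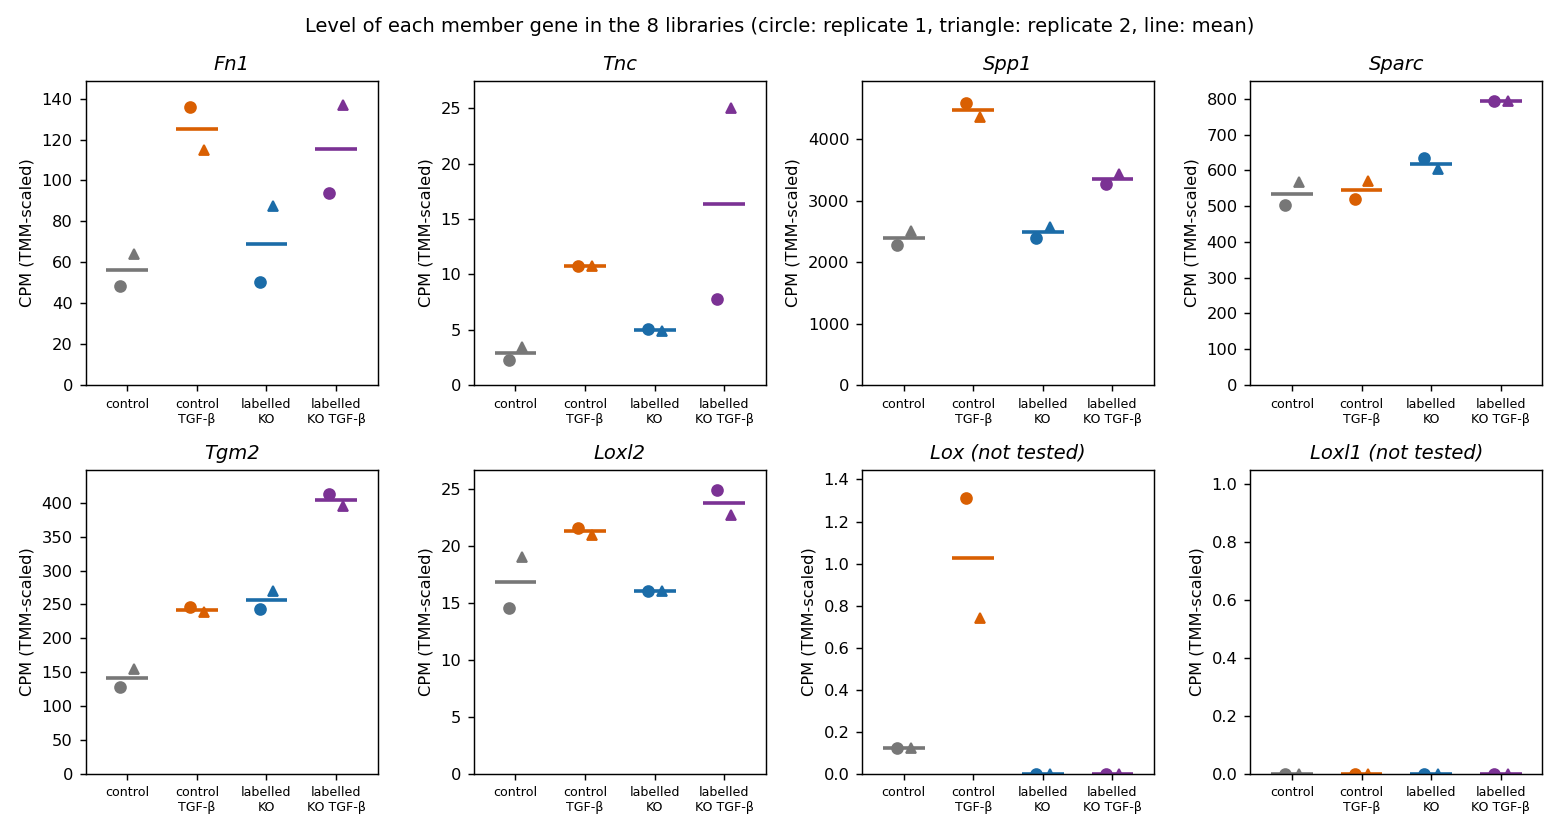
CPM (scaled by edgeR's TMM factors) of the 8 genes in each library, on axes from 0 (circle: replicate 1, triangle: replicate 2, line: mean of the group). *Spp1* is highest in treated control cells at 4369 and 4595 CPM, and *Sparc* and *Tgm2* in treated cells labelled knockout at 793 and 795 and at 396 and 413 CPM.

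*Tgm2* (ENSMUSG00000037820.9, chromosome 2, 157942138 to 157972172, minus strand) encodes transglutaminase 2, which crosslinks matrix proteins and also serves integrins as a co-receptor for fibronectin. Control cells had 128 and 154 CPM, and 246 and 239 CPM after TGF-β. The libraries labelled knockout had 243 and 269 CPM untreated and 413 and 396 CPM treated. Untreated libraries labelled knockout thus lay at the level of treated control cells, with which they overlapped, and all other neighbouring groups in the order control, treated control, labelled knockout, treated labelled knockout were separate. In control cells TGF-β raised the log2 level of *Tgm2* by 0.78 (SE 0.14, edgeR's adjusted p = 0.0123), and in cells labelled knockout by 0.66 (SE 0.14, adjusted p = 0.0251). It was higher in the libraries labelled knockout by 0.86 untreated (SE 0.14, edgeR's adjusted p = 0.0187) and by 0.74 treated (SE 0.14, adjusted p = 0.0105). The difference between the responses was -0.12 (interval -0.57 to 0.32, adjusted p = 0.908).

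The untreated genotype call of *Tgm2* was lost when any 1 of the 4 untreated libraries was left out, with edgeR's adjusted p between 0.0801 and 0.181. The call after TGF-β was lost in control cells without control replicate 1 (adjusted p = 0.143) or with only the 4 control libraries (0.0525), and in cells labelled knockout without any 1 of their 4 libraries (0.0743 to 0.196). That between treated genotypes was lost with only the 4 treated libraries (0.0574). On the other strand, *Rprd1b* shares 370 exon bases with *Tgm2* and had 30.8 to 42.6 CPM. Its log2 fold changes were -0.13 and 0.15 between untreated and between treated genotypes and -0.27 and 0.00 after TGF-β in control cells and in cells labelled knockout, and none passed the test.

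*Loxl2* (ENSMUSG00000034205.8, chromosome 14, 70008978 to 70095640, plus strand) encodes a lysyl oxidase relative that acts on collagen IV of basement membranes. Control cells had 14.6 and 19.0 CPM untreated and 21.6 and 21.0 CPM treated. Cells labelled knockout had 16.1 and 16.1 CPM untreated and 24.9 and 22.7 CPM treated. Treated libraries stood above all untreated ones, and the untreated genotypes overlapped. No comparison passed edgeR's test: the log2 difference after TGF-β was 0.34 in control cells (SE 0.20, adjusted p = 0.308) and 0.57 in cells labelled knockout (SE 0.20, adjusted p = 0.139). The former was 0.16 and 0.55 without control replicate 1 and 2. Between genotypes it was -0.06 untreated (SE 0.21, adjusted p = 0.919) and 0.16 treated (SE 0.20, adjusted p = 0.618).

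*Lox* (ENSMUSG00000024529.6, chromosome 18, 52675723 to 52689521, minus strand) encodes the lysyl oxidase that crosslinks fibrillar collagen and elastin. It had 1 and 1 counts in control cells, 14 and 7 after TGF-β, and none in the 4 libraries labelled knockout. Treated control cells had 8.60 times the level of untreated ones, with a counting interval of 2.10 to 75.7. Against the treated libraries labelled knockout they were at least 6.43-fold higher by the lower limit of the counting interval, and the ratio to a floor of 3 counts over that group was 8.65. Intervals and floors cover counting error only. *Loxl1* (ENSMUSG00000032334.8, chromosome 9, 58135530 to 58161019, minus strand), which crosslinks elastin, was at 0 in all 8 libraries, which allows up to 0.121 to 0.249 CPM per group.

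Of 17 integrin subunits, fibulins and other partners of fibronectin, 9 were tested. TGF-β raised 4 in control cells and 7 in cells labelled knockout and lowered none, with median log2 fold changes of 0.72 and 0.96. Over all tested genes 4.69% rose and 4.47% fell in the former and 4.25% and 2.57% in the latter. *Itgb6*, the β subunit of the αvβ6 integrin that binds fibronectin and latent TGF-β, rose from 49.3 and 68.2 to 453 and 409 CPM in control cells (log2 fold change 2.87, edgeR's adjusted p = 4.16e-04). In cells labelled knockout it rose by 2.98 on that scale (adjusted p = 3.13e-04). The integrin β subunits *Itgb5* and *Itgb1* rose in control cells by 0.95 and 0.72 and in cells labelled knockout by 0.94 and 0.86. *Itga5*, the α subunit of the main fibronectin receptor, rose by 1.90 in cells labelled knockout, and *Fbln2*, a fibulin that binds fibronectin, by 1.11. In control cells *Fbln2* also rose, by 0.68 (edgeR's adjusted p = 0.0235), and *Itga5* had a log2 difference of 1.28 that did not pass (0.0653, and 0.00395 by DESeq2). Between genotypes *Itgb5* was higher in the libraries labelled knockout by 0.69 untreated and 0.67 treated, and *Fbln2* by 0.94 treated. The untreated call of *Itgb5* was lost with the replicate block (edgeR's adjusted p = 0.0606) and by limma-voom (0.0609). The count in cells labelled knockout was 1 without untreated replicate 1, 2 without untreated replicate 2 and 4 without treated replicate 2, and in control cells 1 and 2 without untreated replicate 1 and 2. The untreated genotype call of *Itgb5* was lost without any 1 of the 4 untreated libraries or either treated library labelled knockout (adjusted p between 0.0677 and 0.352). In control cells the call of *Itgb1* was lost without control replicate 1 or 2 or treated control replicate 2 (adjusted p up to 0.171) or with only the 4 control libraries (0.0824), and that of *Itgb5* without control replicate 1 (0.0516). The call of *Fbln2* there was lost without control replicate 1 or 2 (0.182 and 0.102), without treated control replicate 1 (0.0516) and with only the 4 control libraries (0.0759), and the list's count was 2 with those 4 libraries. In cells labelled knockout the call of *Itga5* was lost without untreated replicate 1 or 2 or treated replicate 2 (0.146, 0.152 and 0.0922), and that of *Fbln2* without untreated replicate 1 (0.0550), while *Itgb5* and *Itgb1* were lost there without untreated replicate 1 (0.0569 and 0.0944) or 2 (0.0781 and 0.0999). Between treated genotypes 2 genes of the list were called, against 8.47% of all tested genes higher and 6.57% lower. There *Itgb5* was lost without treated labelled knockout replicate 1 or with only the 4 treated libraries (edgeR's adjusted p = 0.0774). The list's count rose without treated control replicate 1, as did that over all genes.

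Of 21 other matricellular genes, 8 were tested. TGF-β raised 4 and lowered 1 in control cells (4.69% and 4.47% of all tested genes), and raised 4 in cells labelled knockout (4.25%). *Ctgf*, a fibronectin-binding CCN protein, rose by a log2 fold change of 3.03 in control cells and of 3.77 in cells labelled knockout, and its relatives *Cyr61* and *Wisp1* rose by 2.43 and 2.43 in the latter. Both also rose in control cells, by 2.21 and 2.14. *Tnxb*, a tenascin of connective tissue, fell by 2.37 in control cells and was higher by 2.38 in the treated libraries labelled knockout. Its levels were 73.7 and 54.3 CPM in control, 13.4 and 11.3 CPM in treated control, 89.3 and 113 CPM in labelled knockout and 53.1 and 75.9 CPM in treated labelled knockout libraries. *Wisp2* was higher by 1.51 in the treated libraries labelled knockout. Between untreated genotypes 0 genes of the list passed edgeR's test, where 1.03% of all tested genes were higher and 0.798% lower. Unadjusted, 4 of the list and 1936 of all 13028 tested genes had edgeR's p below 0.05. Of the list 0 passed by DESeq2 or limma-voom, 3 without the filter on low counts and 1 with only the 4 untreated libraries. Over all genes these settings called 428, 137, 756 and 804. The 5 calls with TGF-β in control cells were 3 without control replicate 1. The calls of *Cyr61* were lost without either untreated library of the genotype concerned (adjusted p between 0.0954 and 0.169, edgeR), and that of *Wisp2* without treated control replicate 1 (0.0600) or treated labelled knockout replicate 1 or 2 (0.108 and 0.0591) or with only the 4 treated libraries (0.0885).

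Of 16 other crosslinking and collagen-modifying genes, 8 were tested, to be read against the same shares of all tested genes (1.03% higher and 0.798% lower between untreated and 8.47% and 6.57% between treated genotypes). With TGF-β those shares were 4.69% higher and 4.47% lower in control cells and 4.25% and 2.57% in cells labelled knockout. *Loxl4*, another lysyl oxidase relative, was higher in the libraries labelled knockout by 1.21 on the log2 scale untreated (edgeR's adjusted p = 0.0208) and by 1.58 treated (0.00242). It had 38.8 and 43.1 CPM in control cells against 113 and 77.2 CPM, and 34.7 and 30.1 CPM against 88.5 and 106 CPM after TGF-β, so the genotypes were separate under both conditions. *Plod2*, a lysyl hydroxylase of collagen, rose with TGF-β by 0.86 in control cells, where it was the 1 gene of the list called, and by 0.76 in cells labelled knockout, where *Pxdn*, a peroxidase that crosslinks collagen IV, and *Bmp1*, a protease that matures procollagen and lysyl oxidase, also rose, by 0.88 and 0.69. Between treated genotypes *Plod1*, another lysyl hydroxylase, and *Pxdn* were higher in the libraries labelled knockout by 1.13 and 1.00. *Plod2* and the prolyl hydroxylase subunit *P4ha1* were lower there (log2 fold changes -0.71 and -0.86), and these 2 are named after their values were seen. The untreated call of *Loxl4* was lost without control replicate 1 or 2 or labelled knockout replicate 1 (adjusted p between 0.146 and 0.181). The calls after TGF-β numbered 0 in control cells without control replicate 1 or 2 and 3 without treated control replicate 2. In cells labelled knockout they numbered 0 without untreated replicate 1 or 2 or treated replicate 2, and 1 without either untreated control library, and *Plod2* was also lost there without treated replicate 1 (adjusted p = 0.0757). The 5 calls between treated genotypes were 3 without treated labelled knockout replicate 2. With only the 4 libraries compared, *Plod1* was lost between treated genotypes (adjusted p = 0.0503) and *Plod2* with TGF-β in control cells (0.0551). The replicate block ended the calls of *Plod2* and *Bmp1* with TGF-β in cells labelled knockout (edgeR's adjusted p = 0.0589 and 0.0685).

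**Figure D4:**
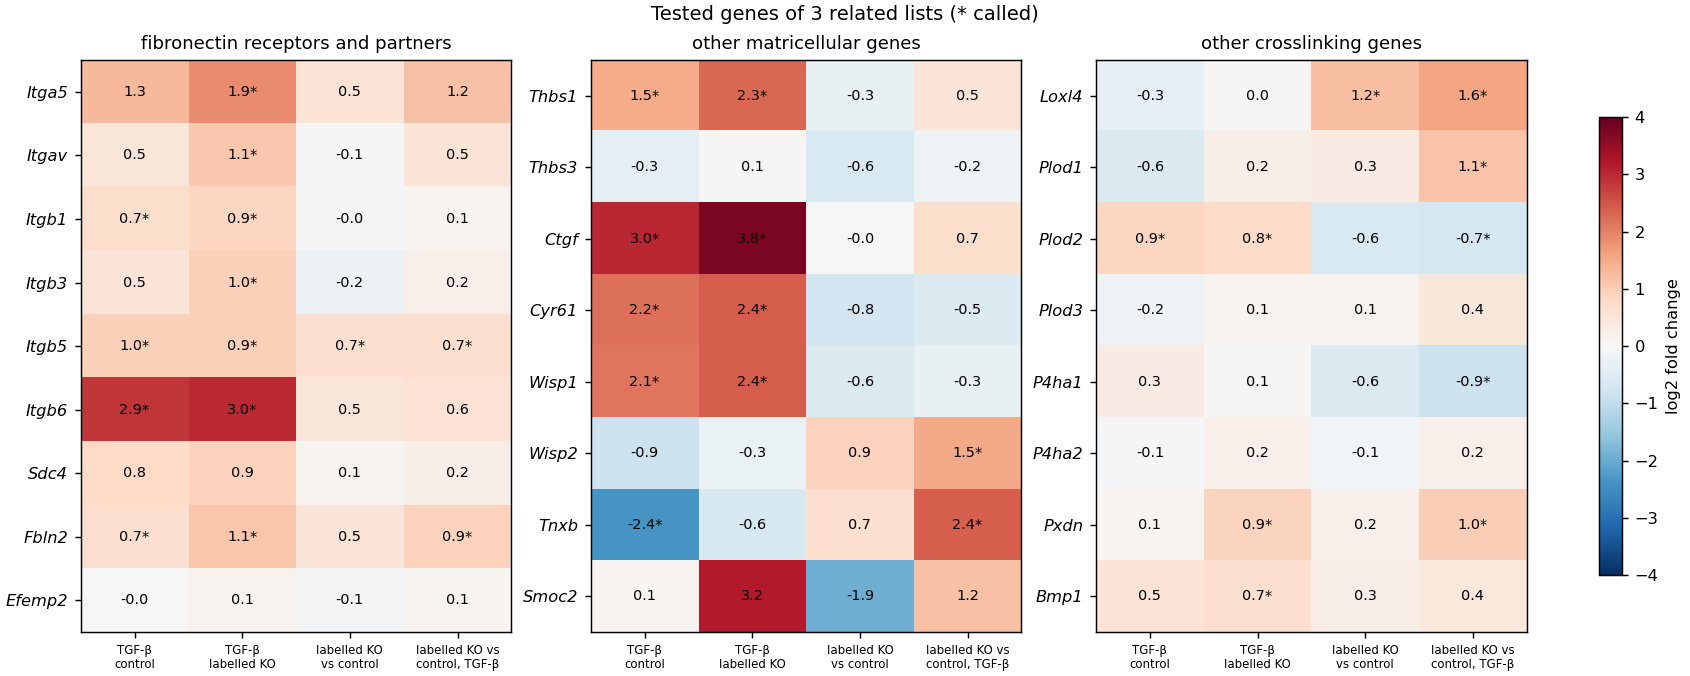
Log2 fold changes (colour and number) of the tested genes of 3 lists around the group, with 1 column per comparison and an asterisk where the gene passed the test. *Itgb6* and *Ctgf* are high after TGF-β in both genotypes, and *Loxl4* is high in both genotype comparisons.

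The genes whose log2 CPM over the 8 libraries ran closest to each member are given as a description, since the libraries share groups, depth and treatment. *Fn1* lay closest to *Itpkb* (Pearson's r = 0.993), *Clybl* (0.970) and *Plekha3* (0.964), and *Tnc* to *Otud5* (0.980), *Gramd3* (0.965) and *Svil* (0.965). *Spp1* lay closest to *Ociad1* (0.984), *Tes* (0.983) and *B2m* (0.982), and *Sparc* to *Alg2* (0.983), *Herpud1* (0.980) and *Ncam1* (0.980). *Tgm2* lay closest to *Shroom1* (0.989), *4930486L24Rik* (0.989) and *Slc7a7* (0.987), and *Loxl2* to *A630095E13Rik* (0.981), *Rbfox2* (0.979) and *Mex3a* (0.967). Within the group, *Fn1* ran with *Tnc* (r = 0.88) and with *Spp1* (0.88), and *Sparc* with *Tgm2* (0.86), whereas *Sparc* and *Spp1* had r = 0.066 over these 8 libraries.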

How the data were processed

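RNA-seq counts per gene were analysed as deposited. The authors made these raw counts per gene from libraries of a total RNA kit by the labels and of an mRNA kit by the paper. According to the study's methods, reads were aligned with subjunc and duplicates were removed, while the submitters' processing notes list HISAT2, limma and mm10. How reads were counted and whether by strand is not given in the sources used here, so reads of genes that overlap on opposite strands cannot be told apart. Sequencer, kit and read layout differ between the labels and the paper. The 37310 gene IDs match GENCODE vM1 (NCBIM37) in content and order, and positions are of that annotation.

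Groups were taken from the labels. edgeR 4.0.16 in R 4.3.3 was run on all 8 libraries (filterByExpr, TMM factors, quasi-likelihood test with group as the only term, Benjamini-Hochberg adjustment over 13028 genes, called at adjusted p below 0.05 and a log2 fold change beyond 0.5, the interaction by adjusted p alone). The fit had 4 residual degrees of freedom and a common biological coefficient of variation of 0.180. Totals of 4297832 to 13574397 counts put the level of 3 counts at 0.238 to 0.661 CPM. RPKM used exon lengths of the annotation. The procedure was tested on simulated data. Alternatives were RLE factors, no filter, a mean of at least 10 counts, DESeq2 1.42.0, limma-voom (limma 3.58.1), a replicate block, thinning to the smallest total, the 4 libraries of a comparison alone, and leaving out each library.

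The members and the lists (fibronectin receptors and partners, other matricellular genes, other crosslinking genes, early TGF-β targets and cell type markers) were chosen with earlier results of these data known. Named genes are the members, the 3 called genes with the largest absolute log2 fold change per list and comparison, the 2 largest changes among the early TGF-β targets in control cells (1 of which is not reported here), the 3 genes most correlated with each tested member, and *Lnc-Nr6a1*. Promoter windows are from RefSeq.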

Additional observations from a re-analysis of the deposited data

How the results depend on the processing

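The count of members called between untreated genotypes (1) ranged from 0 to 1 over leave-outs, with 0 without any 1 of the 4 untreated libraries. With TGF-β in control cells (3) it ranged from 1 to 4, with 1 without control replicate 1. In cells labelled knockout (1) it was 3 without a filter on low counts (*Tnc* and *Fn1* gained) and 2 by DESeq2 (*Tnc* gained), and ranged from 0 to 1, with 0 without untreated replicate 1 or 2 or treated replicate 2. Between treated genotypes (2) it was 0 with the 4 treated libraries alone and 3 without a filter on low counts, where *Lox* with its few counts was gained. The count fell without treated control replicate 1 or treated labelled knockout replicate 2. Without either untreated library labelled knockout *Sparc* was lost and the count of 2 held only because *Lox* was then let in by the filter through the group where it was high, so it supports nothing. Without treated labelled knockout replicate 1 the genes were *Tgm2* and *Tnc*. Some log2 differences that had not passed turned direction when 1 library was left out. Between untreated genotypes *Fn1* ranged from -0.16 to 0.64, *Spp1* from -0.013 to 0.12 and *Loxl2* from -0.25 to 0.14, and *Loxl2* was 0.051 after thinning. With TGF-β in control cells *Sparc* ranged from -0.058 to 0.12, and between treated genotypes *Fn1* from -0.41 to 0.14 and *Tnc* from -0.46 to 1.22. The difference between responses ranged from -0.76 to 0.042 for *Fn1*, from -1.24 to 0.44 for *Tnc* and from -0.26 to 0.014 for *Tgm2*. The cause was not tested. *Tnc* with TGF-β in control cells passed without a filter, by DESeq2, after thinning, with 4 libraries and with the block. The adjusted p was from 5.78e-06 to 0.0477, that of DESeq2 0.00451 and the others edgeR's. *Tnc* did not pass by limma-voom (0.139), with RLE factors or with a mean of at least 10 counts, and 9 of its 16 alternatives did not pass. Without control replicate 1 and 2 its log2 fold change was 1.65 and 2.23. Alternative values of log2 fold changes were tallied for the tested members and the 3 called genes with the largest change per related list and comparison. Of these, 790 kept direction and side of the threshold, 71 lost and 12 gained a call and 14 turned direction. Genes named for a further comparison, such as *Fbln2* in control cells, are not in this tally there.

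Over all genes, calls between untreated genotypes (238) were 756 without a filter, 428 by DESeq2, 137 by limma-voom, 804 with 4 libraries and 42 to 390 over leave-outs. With TGF-β in control cells (1194) they were 2021 without a filter, 470 with 4 libraries and 145 to 1484 over leave-outs. In cells labelled knockout (889) they were 1832 without a filter and 136 to 1381 over leave-outs, between treated genotypes (1959) 410 with 4 libraries and 477 to 2762, and for the interaction (0) 211 without a filter, 30 by DESeq2 and 0 to 6. The replicate numbers share no stated source. Deviations of same-numbered libraries correlated with r = 0.097 and -0.47 between untreated and treated genotypes and 0.30 and -0.0088 for TGF-β in control cells and cells labelled knockout. With the replicate block, calls were 150, 1490, 831 and 676 in that order and 0 for the interaction, and the member counts were 1, 2, 4 and 1, with *Tnc* as the gene gained. Among named genes of the lists the block ended the calls of *Itgb5* between untreated genotypes (adjusted p = 0.0606) and of *Plod2* and *Bmp1* with TGF-β in cells labelled knockout (0.0589 and 0.0685), and limma-voom that of *Itgb5* (0.0609) and of *Cyr61* with TGF-β in cells labelled knockout (0.0608). With the numbers of the treated libraries labelled knockout crossed, a setting added after seeing the data, 2809 genes were called between treated genotypes.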
